A study of Rattus norvegicus with 48 samples.

Results

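The report concerns Prima1 and Gabrr1, 2 genes of synapses, in all 48 muscle libraries of the series. Prima1 (ENSRNOG00000008915) and Gabrr1 (ENSRNOG00000007603) were 2 of the 31998 genes in the deposited table, and both were among the 16960 genes kept for testing. They were chosen by earlier fold changes of these data, Prima1 for its rise after immobilization in the plantaris of HRT rats and Gabrr1 for changes of opposite sign in the 2 muscles. The values behind that choice, and other comparisons that use the libraries behind it, are therefore given below as descriptions, with no test. For Gabrr1 this holds for every comparison, since all 8 groups entered the choice. The rats were females of 14 months from generation 19 of lines bred as low responders (LRT) or high responders (HRT) to endurance training. Each line gave 6 rats with one hindlimb cast for 3 days (hindlimb immobilization, HI) and 6 separate rats with no cast (CTRL), so that 24 rats gave 8 groups of 6 libraries, 1 from the plantaris and 1 from the soleus of each rat. Per the study's methods, all groups had been through treadmill training and anaesthesia and had received puromycin shortly before collection, and the foot was cast in plantar flexion.

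Prima1 encodes PRiMA, the proline-rich protein that anchors tetramers of acetylcholinesterase in the cell membrane. Acetylcholinesterase ends transmission at cholinergic synapses by splitting acetylcholine, and at the neuromuscular junction much of it is held outside the cell by another anchor, the collagen ColQ. The membrane-anchored form is known to be more abundant in fast than in slow muscle, and the plantaris is a fast and the soleus a slow muscle of the rat calf. Gabrr1 encodes the rho1 subunit of GABA-A receptors, the chloride channels opened by GABA, and is best known from the retina.

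The region around each start site is shown because the 2 genes changed differently between groups and yet varied together within some groups. These included the plantaris of HI rats and the soleus of HRT HI rats (below). The sequences are those of RefSeq on the GRCr8 assembly, whereas the counts were made on Rnor_6.0, and both genes were matched. Each runs from 250 bases before to 50 bases after the start site, 5′ to 3′ on the gene's strand, and capitals mark E-boxes (CANNTG, the same on both strands), the element bound by myogenic factors of the MyoD family.
Prima1: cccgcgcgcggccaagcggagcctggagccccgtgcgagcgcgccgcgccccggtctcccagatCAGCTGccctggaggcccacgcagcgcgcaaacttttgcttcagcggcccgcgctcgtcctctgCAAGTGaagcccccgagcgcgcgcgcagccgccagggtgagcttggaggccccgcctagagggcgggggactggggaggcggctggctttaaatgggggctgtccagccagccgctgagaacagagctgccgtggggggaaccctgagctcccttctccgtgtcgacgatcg
Gabrr1: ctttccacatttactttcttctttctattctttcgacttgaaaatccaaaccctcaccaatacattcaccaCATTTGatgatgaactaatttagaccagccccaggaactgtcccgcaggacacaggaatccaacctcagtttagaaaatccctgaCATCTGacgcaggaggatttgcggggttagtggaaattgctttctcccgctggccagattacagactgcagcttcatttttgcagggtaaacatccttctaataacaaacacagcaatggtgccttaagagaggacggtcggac

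The Prima1 region lies at chr6:128154587-128154886 on the minus strand and the Gabrr1 region at chr5:52320225-52320524 on the plus strand. Both held 2 E-boxes, and 72.1% of the 33469 RefSeq promoters of the same length held at least 1. Neither held the N-box CCGGAA on either strand, an element of genes expressed at the junction, which 15% of promoters held. The Prima1 region was rich in G and C, with 72.0% of its bases and 34 CpG, and 94.1% of promoters had a lower share. The Gabrr1 region had 44.7% and 7 CpG, against medians of 51.7% and 7 over all promoters. These matches describe the letters in the window and were not tested against any measurement.

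The libraries held 26.8 M to 36.4 M counts each, with an RNA integrity number (RIN) of 7.8 to 8.6, and no library was left out. The tissue labels were checked on the fast fibre markers that had an identifier (Atp2a1 and Pvalb, 2 of 10), whose summed level was 2390 to 6090 CPM (counts scaled to a common library total) in the plantaris and 40.6 to 366 CPM in the soleus. None of the 8 slow fibre markers had one. Prima1 had 12 to 968 counts per library and Gabrr1 2 to 264, so that Gabrr1 in the soleus of CTRL rats, at 2 to 24 counts, was measured with the least precision. CPM is not corrected for gene length, so levels were compared between groups and never between the 2 genes.

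In CTRL rats both genes were higher in the plantaris than in the soleus. Prima1 in the plantaris of LRT rats was between 1.57 and 5.19 CPM with a median of 3.28, and in the soleus between 0.63 and 1.08 with a median of 0.81, without overlap, as 12.6% of tested genes were in this direction. In HRT rats it was between 0.79 and 4.0 CPM (median 2.40) in the plantaris and between 0.46 and 1.65 (median 0.76) in the soleus, and these ranges overlapped. The fitted difference in LRT was 3.33-fold (log2 1.74, SE 0.51, adjusted p = 0.0069), a call that 17% of tested genes shared in this direction. In HRT it was 2.61-fold (log2 1.38, SE 0.50). The HRT value uses the CTRL plantaris libraries behind the choice of Prima1 and was not tested, and 18.9% of tested genes were called higher there.

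Gabrr1 was low in the soleus of CTRL rats. It lay between 3.00 and 8.17 CPM (median 4.69) in the plantaris of LRT CTRL rats and between 0.10 and 0.52 CPM in their soleus. In HRT CTRL rats it lay between 4.15 and 10.18 CPM (median 5.55) in the plantaris and between 0.08 and 0.74 (median 0.30) in the soleus. Every plantaris library was above every soleus library in both lines, the separation named above for LRT, which 13.2% of tested genes showed in HRT. The fitted level of Gabrr1 was 16.2-fold higher in the plantaris of LRT (log2 4.01, SE 0.45) and 16.4-fold higher in that of HRT (log2 4.04, SE 0.44). These folds were not tested, because a choice for a fall in the plantaris and a rise in the soleus favours a high CTRL level in the first and a low one in the second.

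Between the lines the CTRL levels of both genes were close. For Prima1, LRT minus HRT was 0.07 log2 units in the soleus (95% interval -1.02 to 1.16, adjusted p = 0.97), an interval that still allows a difference of 1 log2 unit either way. The interval uses the spread of all 8 groups, while the SD of log2 CPM in these 2 groups was 0.25 in LRT and 0.56 in HRT. In the plantaris LRT minus HRT was 0.42 for Prima1 (SE 0.46), which uses HRT libraries behind the choice and was not tested. For Gabrr1 it was -0.19 in the plantaris (SE 0.35) and -0.16 in the soleus (SE 0.51), also not tested. Of all tested genes, 0.525% differed between the lines in the plantaris of CTRL rats and 1.45% in the soleus.

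**Figure D1:**
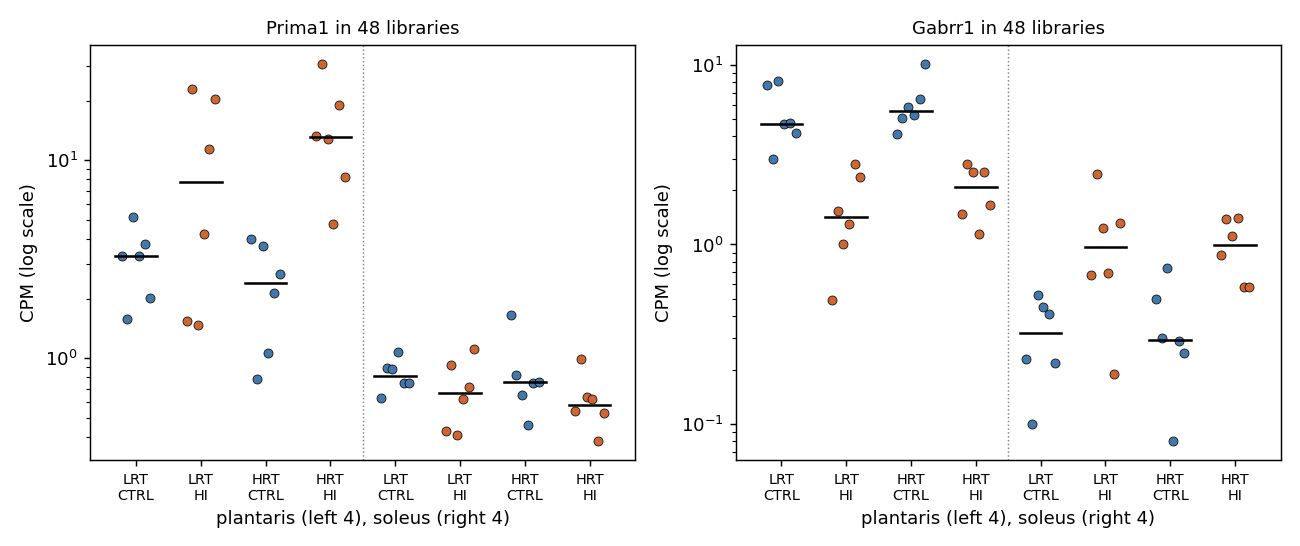
Prima1 (left) and Gabrr1 (right) in each of the 48 libraries, in CPM on a log axis, by muscle, line and treatment; each point is 1 library, blue CTRL and orange HI, and the black bar is the group median. Prima1 of HI rats reached 30.82 CPM in the plantaris and stayed at or under 1.11 CPM in the soleus, whereas Gabrr1 of HI rats lay below CTRL in the plantaris and mostly above CTRL in the soleus.

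The question of the HI comparison was how 3 days in a cast changed each muscle in each line. In the plantaris of HRT rats, the contrast for which Prima1 was chosen, its levels in CTRL were 0.79, 1.06, 2.13, 2.66, 3.68 and 4.0 CPM. In HI they were 4.78, 8.28, 12.82, 13.34, 19.09 and 30.82 CPM. All 6 HI libraries were above all 6 CTRL libraries, as 3.27% of tested genes were, and the fitted change was 5.66-fold (log2 2.50, SE 0.46), a description that was not tested.

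In the plantaris of LRT rats, which the choice did not use, Prima1 rose but the HI rats did not behave alike. The CTRL levels were 1.57, 2.01, 3.27, 3.29, 3.79 and 5.19 CPM, and the HI levels 1.48, 1.55, 4.23, 11.37, 20.33 and 22.86 CPM. Replicates 5, 6 and 2 of HI stood above all CTRL libraries, while replicates 3 and 1 lay below all of them, so that HI covered a 15.5-fold range and the groups overlapped. The fitted rise was 2.91-fold (log2 1.54, SE 0.45, 95% interval 0.63 to 2.45, adjusted p = 0.0085), and 15.1% of tested genes were called higher in this comparison. Without replicate 2 of HI it was 1.00 on the log2 scale (adjusted p = 0.089). With limma-voom it was 0.92 (adjusted p = 0.25). The edgeR fit takes 1 estimate of the spread per gene from all 8 groups. The SD of log2 CPM of Prima1 was 1.75 in LRT HI plantaris and 0.61 in LRT CTRL plantaris, but 0.25 to 0.56 in the soleus groups. The SE, interval and p of the edgeR fit thus do not measure the spread of the 2 groups compared alone.

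In the soleus Prima1 stayed low and no change passed the test. In LRT rats it lay between 0.63 and 1.08 CPM (median 0.81) in CTRL and between 0.41 and 1.11 (median 0.67) in HI. In HRT rats it lay between 0.46 and 1.65 CPM (median 0.76) in CTRL and between 0.38 and 0.99 (median 0.58) in HI. The groups overlapped in both lines. The change was -0.09 log2 units in LRT (95% interval -1.21 to 1.02, adjusted p = 0.93), where 13.9% of tested genes were called in either direction, and -0.24 in HRT (-1.38 to 0.89, adjusted p = 0.81), where 16.2% were. These intervals too use the spread of all 8 groups, while the SD of log2 CPM was 0.25 to 0.56 in the soleus groups.

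The difference between the lines in the response (DELTA, the log2 change of LRT minus that of HRT) was -0.96 for Prima1 in the plantaris (SE 0.62), which shares the HRT contrast behind the choice and was not tested. It moved to -1.46 without LRT HI replicate 2, to -0.62 without HRT HI replicate 2 and to -1.51 with limma-voom. In the soleus DELTA was 0.15 (95% interval -1.42 to 1.71, adjusted p = 0.97). The difference between plantaris and soleus in the response was 1.63 log2 units in LRT (SE 0.72, 0.18 to 3.09), with an unadjusted p of 0.029 that did not pass after adjustment (0.21) in edgeR's quasi-likelihood test. It was 1.04 without plantaris LRT HI replicate 2 (adjusted p = 0.43) and 1.07 with limma-voom (adjusted p = 0.52). In HRT it was 2.74 (SE 0.74, no test). For this interaction 2.18% of tested genes were called in LRT, against 0.0943% in HRT. These shares, of 370 and 16 genes, depended on the tool and the block. DESeq2 called 730 and 78 genes, and limma-voom 425 and 22. With same-numbered libraries as a random block, limma-voom called 1348 and 223.

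For Gabrr1 the HI changes in both muscles were part of the choice and are described only. In the plantaris of LRT rats its CTRL levels were 3.00, 4.17, 4.66, 4.72, 7.69 and 8.17 CPM and its HI levels 0.49, 1.01, 1.30, 1.54, 2.37 and 2.80 CPM. In HRT rats the CTRL levels were 4.15, 5.07, 5.27, 5.83, 6.43 and 10.18 CPM and the HI levels 1.15, 1.47, 1.66, 2.52, 2.52 and 2.80 CPM. All 6 HI libraries were below all 6 CTRL libraries in both lines, as 5.74% of tested genes were in LRT and 5.4% in HRT. The fitted log2 change was -1.78 (SE 0.38) in LRT and -1.62 (SE 0.37) in HRT.

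In the soleus Gabrr1 was higher in HI. The LRT levels were 0.10, 0.22, 0.23, 0.41, 0.45 and 0.52 CPM in CTRL and 0.19, 0.68, 0.69, 1.24, 1.32 and 2.47 CPM in HI, where 5 of 6 libraries were above all CTRL libraries and replicate 5 was not. The HRT levels were 0.08, 0.25, 0.29, 0.30, 0.50 and 0.74 CPM in CTRL and 0.58, 0.58, 0.87, 1.12, 1.38 and 1.41 CPM in HI, where 4 of 6 were above all CTRL libraries. The fitted log2 change was 1.78 (SE 0.46) in LRT and 1.44 (SE 0.46) in HRT, and the difference between the muscles in the response was -3.57 (SE 0.61) in LRT and -3.06 (SE 0.60) in HRT. The lowest CTRL libraries held 2 and 3 counts, so these folds rest on few reads.

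The Gabrr1 responses of the lines differed by less than their standard errors. DELTA was -0.16 in the plantaris (SE 0.51) and 0.34 in the soleus (SE 0.65), values built from the HI changes behind the choice and not tested. Over all tested genes edgeR called 0% for DELTA in the plantaris, where 1060 genes had an unadjusted p under 0.05 and limma-voom called 2 genes, and 0.0295% in the soleus.

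**Figure D2:**
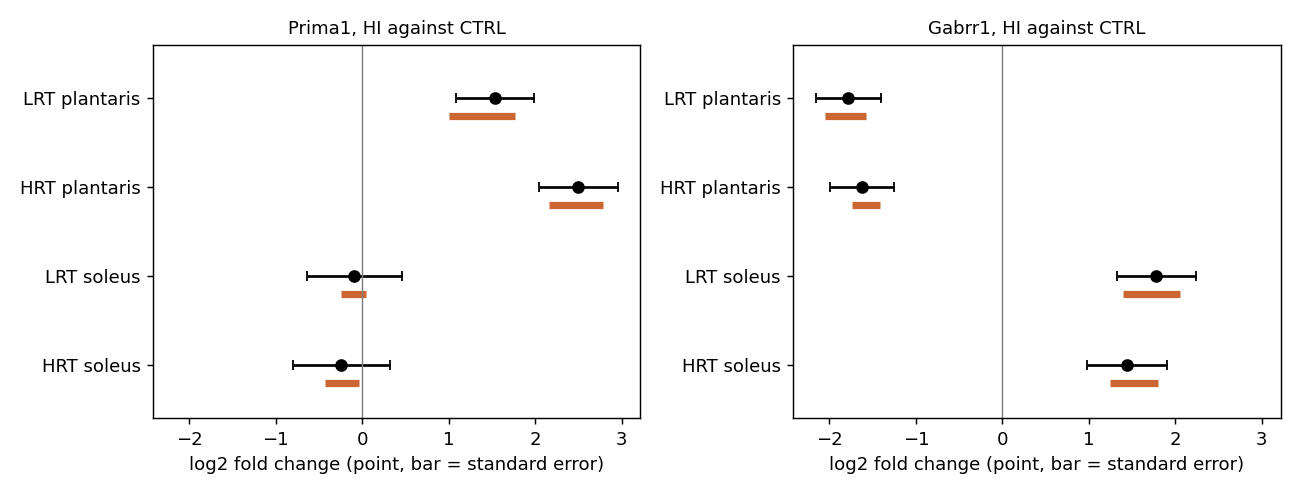
Log2 fold change of HI against CTRL for Prima1 (left) and Gabrr1 (right) in each line and muscle; points are the fitted values, black bars 1 standard error, and the orange bar under each point the range of the value when each library was left out in turn. Gabrr1 lay below 0 in the plantaris and above 0 in the soleus in every such fit, and Prima1 in LRT plantaris moved between 1.00 and 1.77.

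Ordered by mean log2 CPM, the 8 groups formed different sequences for the 2 genes. Prima1 was highest in HRT HI plantaris (3.66), followed by LRT HI (2.63), LRT CTRL (1.60) and HRT CTRL plantaris (1.08), and then by the 4 soleus groups between -0.18 and -0.60. The step from the plantaris to the soleus groups, 1.25, was the only one between neighbours larger than their pooled SD of 0.67, and the ranges still overlapped there. For Gabrr1 the CTRL plantaris groups came first (2.58 in HRT and 2.37 in LRT), then HI plantaris (0.99 and 0.53), HI soleus (-0.01 in HRT and -0.10 in LRT) and CTRL soleus (-1.42 and -1.49). Neighbours differed beyond their pooled SD at the step from CTRL to HI plantaris (1.37 against 0.52, with no overlap) and from HI to CTRL soleus (1.32 against 1.00, with overlap). The soleus and plantaris of HI rats thus stood next to each other in the order of Gabrr1.

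The ratio of plantaris to soleus in libraries with the same replicate number gave the same picture. For Gabrr1 it had a median of 17.2 in LRT CTRL and 19.3 in HRT CTRL, with the plantaris higher in 6 of 6 pairs each time. In HI the median was 1.3 in LRT, with the plantaris higher in 3 of 6 pairs, and 2.14 in HRT, with 5 of 6. For Prima1 the median was 4.06 in LRT CTRL, with the plantaris higher in 6 of 6 pairs, and 2.62 in HRT CTRL, with 5 of 6. In HI the Prima1 median was 11.3 in LRT and 22.4 in HRT, with the plantaris higher in 6 of 6 pairs in each line. The labels do not say that a shared number means a shared rat, and these ratios were not tested.

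**Figure D3:**
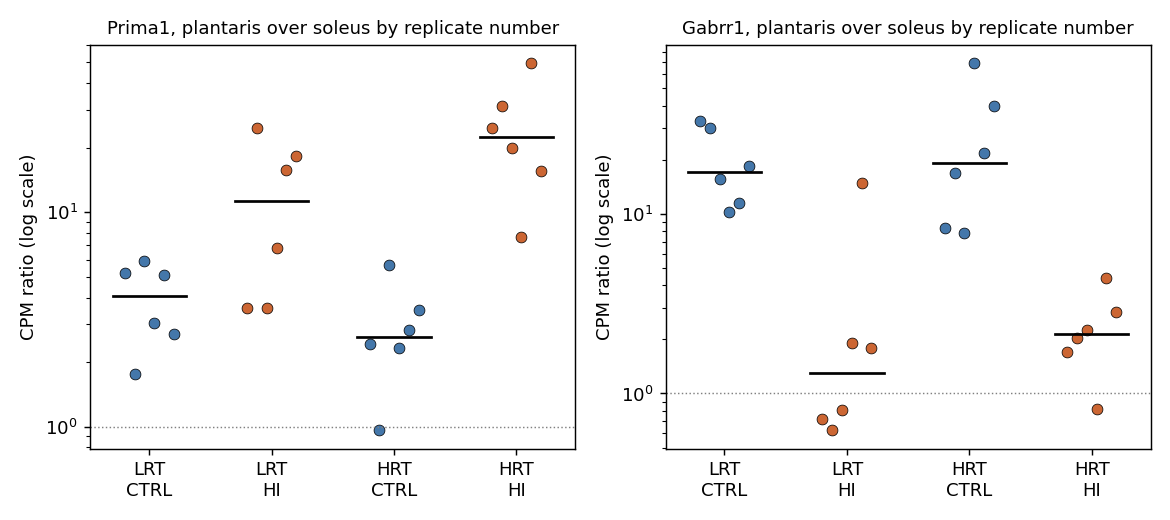
CPM of the plantaris library divided by that of the soleus library with the same replicate number, on a log axis, for Prima1 (left) and Gabrr1 (right); each point is 1 pair, blue CTRL and orange HI, the bar is the median of 6 pairs and the dotted line a ratio of 1. The medians of Prima1 were higher in HI than in CTRL and those of Gabrr1 lower; the Gabrr1 ratios of LRT CTRL number 2 and HRT CTRL number 4 rest on 3 and 2 soleus counts.

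The partners of Prima1 were taken from a list of acetylcholinesterase and its anchors, of which 2 of 4 genes (Ache and Colq) had an identifier. Identifiers came from the genes the study had called changed in these libraries, so neither the direction nor the p of any listed gene is independent evidence. Ache, the enzyme that PRiMA anchors, fell in the plantaris of both lines, the opposite direction to Prima1. In LRT rats it went from 33.22 to 46.8 CPM (median 42.55) in CTRL to 2.99 to 28.41 (median 11.34) in HI, without overlap, a log2 change of -1.91 (SE 0.38, adjusted p = 0.00026). In HRT rats it went from 28.09 to 42.39 CPM (median 37.38) to 3.2 to 31.54 (median 12.61), and only replicate 3 of HI overlapped CTRL (log2 -1.39, SE 0.37, adjusted p = 0.013). Called lower in these comparisons were 13.6% of tested genes in LRT and 5.85% in HRT, and 5.74% were without overlap in this direction in LRT. Since Ache had an identifier only because the study had called it changed, its fall cannot be read against these shares.

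In the soleus Ache showed no change that passed the test, with a log2 change of -0.15 (adjusted p = 0.84) in LRT rats and 0.21 (adjusted p = 0.74) in HRT rats. The difference between the muscles in the Ache response was -1.76 (SE 0.54, adjusted p = 0.063) in LRT and -1.61 (SE 0.53, adjusted p = 0.20) in HRT in edgeR's test, which takes the muscles as independent. With the same-numbered plantaris and soleus libraries as a random block in limma-voom, a fit added after seeing the data, it passed in both lines, at -1.97 (adjusted p = 0.0075) and -1.90 (adjusted p = 0.034). Limma-voom without the block gave an adjusted p of 0.039 in LRT and 0.14 in HRT, so the call depended on the tool and the block. Like Prima1, Ache was higher in the plantaris than in the soleus of CTRL rats, by 1.45 log2 units (adjusted p = 0.0024) in LRT and 1.66 (adjusted p = 0.00036) in HRT.

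Colq, the anchor of the synaptic basal lamina, had the reverse distribution of Prima1. In CTRL rats it was lower in the plantaris than in the soleus by -3.96 log2 units (adjusted p = 3.4e-09) in LRT and -4.12 (adjusted p = 6.1e-10) in HRT, where 15.6% and 19.9% of tested genes were called lower. In the soleus of LRT rats it fell from 3.96 to 16 CPM (median 11.85) in CTRL to 1.15 to 7.54 (median 2.18) in HI (log2 -1.72, SE 0.40, adjusted p = 0.0032), and only replicate 3 of CTRL lay within the HI range. In that of HRT rats it fell from 9.19 to 30.82 CPM (median 12.33) to 0.9 to 5.54 (median 3.02), without overlap (log2 -2.20, SE 0.41, adjusted p = 0.00037). Of tested genes 2.31% separated in this way, but Colq had an identifier only because the study had called it changed and cannot be read against this share. In the plantaris the change was -1.0 (adjusted p = 0.17) in LRT and -0.87 (adjusted p = 0.29) in HRT. Prima1 and Colq, which anchor the same enzyme, thus lay in CTRL rats each at its higher level in the muscle where the other was lower.

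**Figure D4:**
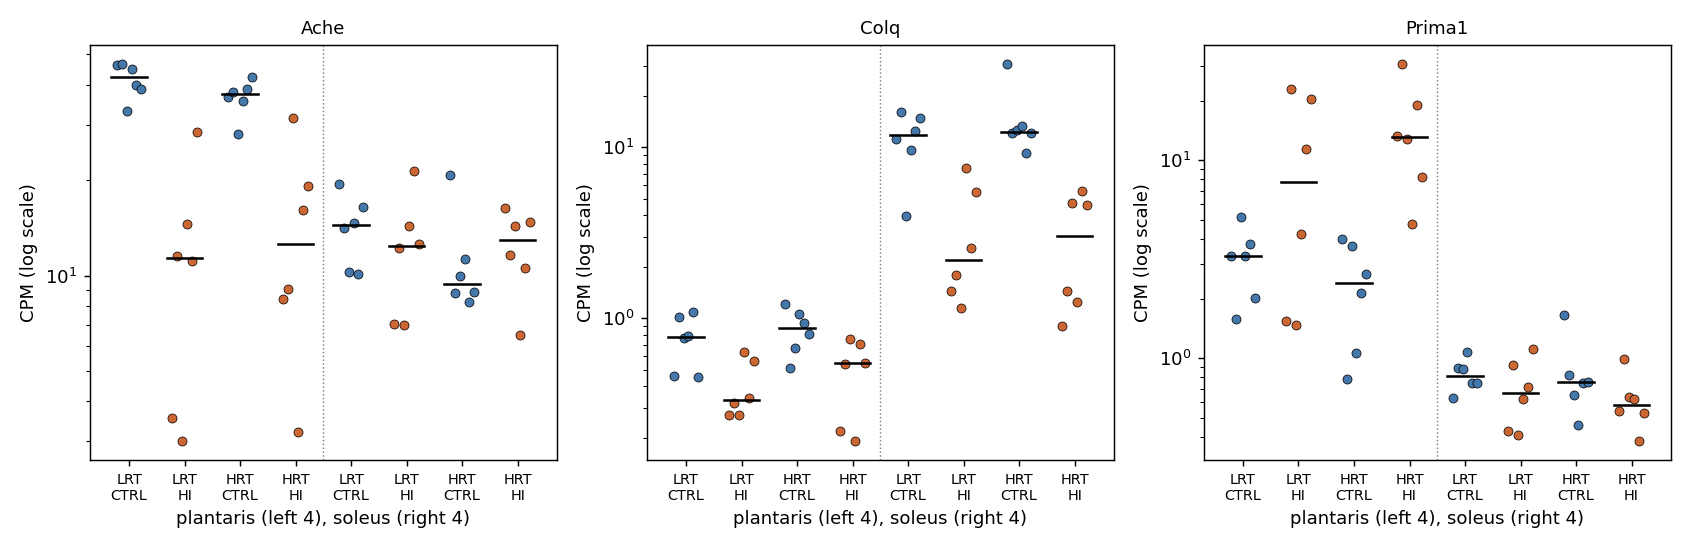
Ache, Colq and Prima1 in each of the 48 libraries, in CPM on separate log axes, with points, colours and median bars as in the plot of the 2 genes by group. In the plantaris HI libraries Ache was lower and Prima1 mostly higher than in CTRL; in the soleus Colq was lower in HI while Prima1 overlapped CTRL.

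Of 18 other genes of the neuromuscular junction, Musk, the receptor kinase through which agrin gathers acetylcholine receptors, was the only 1 with an identifier. It rose in the plantaris of LRT rats, from a median of 3.34 to 8.62 CPM (log2 1.11, SE 0.42, adjusted p = 0.041), a call lost in 7 of 12 fits that left out a library of these groups (adjusted p up to 0.14). In that of HRT rats the value was 1.14 (SE 0.44, adjusted p = 0.086) and rested on replicate 4 of HI, which had 22.43 CPM where the other 5 HI libraries had 2.32 to 4.85 and CTRL 2.47 to 4.27. Without that library the value was 0.27 (adjusted p = 0.72), whereas it passed without HI replicate 3 (1.3, adjusted p = 0.048) and without HI replicate 6 (1.41, adjusted p = 0.035). In the soleus the Musk value was 0.32 and 0.36 (adjusted p = 0.66 and 0.61). Among genes known to respond to lost activity or denervation, 9 of 12 had an identifier. Of these, 8 rose in LRT plantaris, 6 in HRT plantaris and 3 in the soleus of each line, with none falling. In HRT plantaris the count also rested on replicate 4 of HI, and without it 2 rose, with Gadd45a, Kcnn3, Runx1 and Trim63 no longer called (adjusted p = 0.052 to 0.39). In LRT soleus 2 rose without CTRL replicate 4 and without HI replicate 3, and 4 rose without HI replicate 2 and without HI replicate 6. These fits were added after seeing the data. Of all tested genes, 15.1% were called higher in LRT plantaris, 5.11% in HRT plantaris, 7.36% in LRT soleus and 7.95% in HRT soleus, but the listed genes had an identifier only because the study had called them changed, so the counts cannot be read against these shares. The median log2 change of the 9 was 2.60, 1.58, 1.00 and 0.40 in that order. All tested genes had medians of 0.01 to 0.02, but by the same selection the medians of the 9 cannot be read against these. The 9 genes included Hdac4, a repressor known to link lost nerve activity to junction genes, at 2.83 in LRT plantaris (adjusted p = 1.5e-05) and 2.29 in HRT plantaris (adjusted p = 0.0012). Myog, a myogenic factor, was at 2.62 in LRT plantaris (adjusted p = 4.4e-05) and 1.26 in HRT plantaris (adjusted p = 0.057). In HRT plantaris Myog was at 146.31 CPM in replicate 4 of HI, at 11.8 to 42.82 in the other 5 and at 13.14 to 23.76 in CTRL, and without that library its value was 0.43 (adjusted p = 0.54), whereas it passed without HI replicate 3, 5 or 6 (1.38 to 1.55, adjusted p = 0.018 to 0.042).

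The relatives of Gabrr1 could hardly be followed, because 2 of 39 genes of GABA and glycine receptors and GABA handling had an identifier and neither is a receptor subunit. Slc6a9, a glycine transporter, and Gabarapl1, known chiefly from autophagy, both rose in the plantaris, where Gabrr1 was lower. Called higher there were 15.1% of tested genes in LRT and 5.11% in HRT, but both genes had an identifier only because the study had called them changed, so the count of 2 cannot be read against these shares. Slc6a9 rose by 3.02 log2 units in LRT rats (SE 0.53, adjusted p = 5.7e-05) and by 1.55 in HRT rats (SE 0.52, adjusted p = 0.045). Gabarapl1 rose by 1.5 (SE 0.26, adjusted p = 4.6e-05) and 0.98 (SE 0.26, adjusted p = 0.012). Without replicate 4 of HRT HI neither passed in HRT plantaris, with Slc6a9 at 1.31 (adjusted p = 0.13) and Gabarapl1 at 0.70 (adjusted p = 0.075), and the Slc6a9 call there was lost in 9 of 12 fits that left out a library. In the soleus Slc6a9 rose in LRT (1.94, adjusted p = 0.014; 1.6 and 1.65, adjusted p = 0.059 and 0.065, without HI replicates 1 and 3) and the other 3 changes, between 0.28 and 0.55, did not pass. Of these, Gabarapl1 in LRT soleus was at 0.55 (adjusted p = 0.14) and passed without CTRL replicate 3 (0.82, adjusted p = 0.03).

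Of 39 other receptors and synapse proteins, 5 had an identifier. In LRT plantaris Grik4, a kainate receptor subunit, rose by 2.18 (adjusted p = 9.6e-05), while Grip2 and Homer2, scaffold proteins of glutamate receptors, fell by 1.73 and 0.88 on the log2 scale (adjusted p = 7.7e-05 and 0.006). In HRT plantaris Grip2 fell by 1.44 (adjusted p = 0.0021) and no other member passed. In the soleus Grm4, a glutamate receptor, Grip2 and Homer2 fell in both lines, by 0.79 to 1.73 log2 units (adjusted p = 0.0034 to 0.029), and Nrxn2, a presynaptic adhesion protein, rose in LRT (1.54, adjusted p = 0.0056). Grik4 in the soleus was at 1.09 (adjusted p = 0.081) in LRT and 0.74 (adjusted p = 0.25) in HRT, and Nrxn2 in HRT soleus at 0.43 (adjusted p = 0.43). In LRT soleus 1 member thus rose and 3 fell, in HRT soleus none rose and 3 fell, in LRT plantaris 1 rose and 2 fell, and in HRT plantaris none rose and 1 fell. Of all tested genes 7.36% were called higher and 6.58% lower in LRT soleus, 7.95% and 8.23% in HRT soleus, 15.1% and 13.6% in LRT plantaris, and 5.11% and 5.85% in HRT plantaris. Since these 5 genes too had an identifier only because the study had called them changed, the counts cannot be read against these shares. The Homer2 call in LRT soleus and the Grip2 call in HRT soleus were lost in 5 and 4 of 12 fits that left out a library (adjusted p up to 0.085 and 0.1). Single fits of this kind also gained calls, for Homer2 in HRT plantaris (adjusted p = 0.049 without HI replicate 3 and 0.039 without 6), for Grik4 in HRT plantaris (0.048 without HI replicate 5) and LRT soleus (0.045 without HI replicate 6), and for Grm4 in LRT plantaris (0.033 without HI replicate 6, at -1.51 in place of -0.97).

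Within the plantaris libraries Prima1 and Gabrr1 varied together, although their group means moved apart. Over the 6 LRT HI libraries Pearson's r of log2 CPM was 0.80 (Spearman's rho 0.71), and over the 6 HRT HI libraries 0.86 (rho 0.83). With group means removed it was 0.70 over 24 plantaris libraries (rho 0.68) and 0.42 over 24 soleus libraries (rho 0.47). In CTRL plantaris it was 0.83 in LRT and 0.12 in HRT. In the soleus it was 0.80 in HRT HI (rho 0.83), 0.55 in HRT CTRL, 0.25 in LRT HI and 0.24 in LRT CTRL. A high r was thus not particular to the plantaris. Replicates 1 and 3 of LRT HI were the lowest of their group for Prima1, Gabrr1 and Ache alike, and replicate 4 of HRT HI was the lowest of its group for the same 3 genes.

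**Figure D5:**
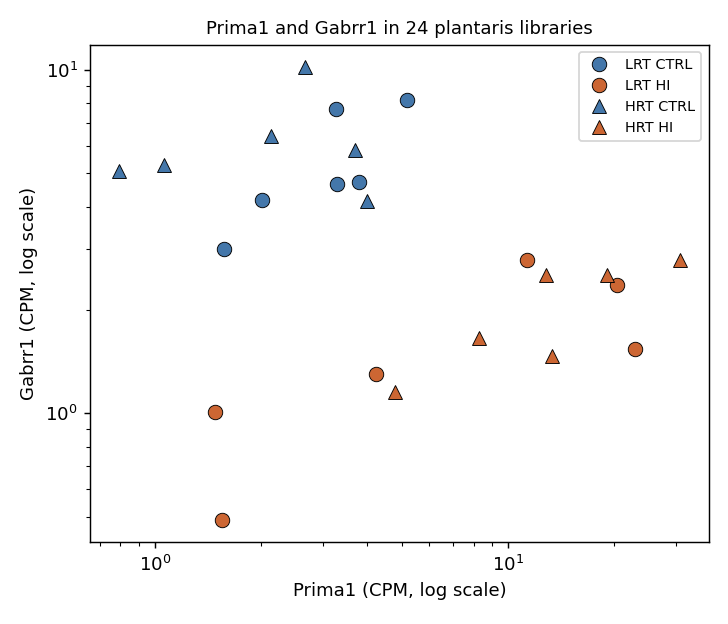
Gabrr1 against Prima1, both in CPM on log axes, in the 24 plantaris libraries; circles are LRT, triangles HRT, blue CTRL and orange HI. The HI libraries lie below the CTRL libraries along the Gabrr1 axis, and among them the libraries with more Prima1 also had more Gabrr1 (r = 0.80 in LRT and 0.86 in HRT).

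Values of library composition moved with both genes in the HI plantaris libraries. The 20 most abundant genes took up 28.5% to 36.6% of counts in LRT HI plantaris and 36.8% to 41.3% in LRT CTRL plantaris. Over the 6 LRT HI libraries this share had r = 0.93 with Prima1 and 0.93 with Gabrr1, and over the 6 HRT HI libraries 0.77 and 0.71. In CTRL plantaris it had r = 0.77 with Prima1 and 0.56 with Gabrr1 in LRT, and 0.56 and -0.06 in HRT. Atp2a1, the calcium pump of fast fibres, had r = 0.86 with Prima1 and 0.87 with Gabrr1 in LRT HI, and 0.85 and 0.97 in HRT HI. In CTRL plantaris it had r = 0.52 with Prima1 and 0.38 with Gabrr1 in LRT, and -0.53 and 0.26 in HRT. Its HI change in the plantaris was -0.32 (adjusted p = 0.46) in LRT and 0.12 (adjusted p = 0.85) in HRT. Trim63, a ubiquitin ligase of muscle atrophy, had r = -0.87 with Prima1 in LRT HI (rho -0.89), but -0.65 in HRT HI (rho -0.09). In CTRL plantaris it had r = 0.35 with Prima1 in LRT (rho 0.49) and -0.23 in HRT. With Gabrr1 it had r = -0.72 in LRT HI, -0.76 in HRT HI, 0.26 in LRT CTRL plantaris and -0.96 in HRT CTRL plantaris. The part of composition in the levels of the 2 genes was not tested.

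Some markers of other cells and of fast fibres also differed between HI and CTRL. Gap43, the only one of 19 Schwann cell and axon markers with an identifier, fell in the plantaris of LRT, where it ranged from 0.647 to 1.61 CPM in CTRL and from 0.245 to 0.742 in HI (adjusted p = 0.0022). In HRT plantaris it fell from 1.25 to 2.16 CPM to 0.223 to 1.08 (adjusted p = 0.0025), and in HRT soleus from 1.52 to 3.08 CPM to 0.329 to 1.32 (adjusted p = 0.015, and 0.056 without HI replicate 1). In LRT soleus it ranged from 1.23 to 2.25 CPM in CTRL and from 0.302 to 1.91 in HI (log2 -0.98, adjusted p = 0.058), and the fall passed without HI replicate 6 (-1.49, adjusted p = 0.0031) and without HI replicate 2 (-1.12, adjusted p = 0.041). Of the 5 of 10 fibroblast markers with an identifier, 5 fell in LRT plantaris, 3 in HRT plantaris, 1 in LRT soleus and 2 in HRT soleus, and none rose. Called lower among all tested genes were 13.6%, 5.85%, 6.58% and 8.23% in that order, but these markers too had an identifier only because the study had called them changed, so the counts cannot be read against these shares. In LRT plantaris the count was 3 without HI replicate 3, and 4 without CTRL replicate 2 or 4 or HI replicate 1, 2, 4 or 5. In HRT plantaris it was 2 without CTRL replicate 1, 5 or 6 or HI replicate 1, 4 or 5, and 4 without HI replicate 6. It was 2 in LRT soleus without HI replicate 6, and 1 in HRT soleus in 8 of 12 fits that left out a library. Their summed level ranged from 593 to 1290 CPM in LRT CTRL plantaris and from 210 to 749 in HI, and from 632 to 1260 and 211 to 663 in HRT. In the soleus it ranged from 501 to 1060 CPM in LRT CTRL and from 179 to 990 in HI, and from 504 to 2660 and 443 to 930 in HRT. Of the fast fibre markers, Pvalb, the calcium-binding parvalbumin, was higher in HI in the soleus, as Gabrr1 was. It rose in LRT soleus from 0.37 to 3.83 CPM (median 1.13) in CTRL to 2.68 to 43.1 (median 7.2) in HI (log2 3.23, adjusted p = 2e-04), and its log2 change in HRT soleus was 1.47 (adjusted p = 0.079). In LRT plantaris, where Gabrr1 was lower in HI, Pvalb ranged from 1981 to 3116 CPM (median 2332) in CTRL. In HI it ranged from 1067 to 1530 (median 1211), without overlap, as 5.74% of tested genes were in this direction. Pvalb too had an identifier only because the study had called it changed, so it cannot be read against this share. Its change of -1.04 (SE 0.49, unadjusted p = 0.039) did not pass after adjustment (0.11) in edgeR's test. In HRT plantaris Pvalb ranged from 832 to 1790 CPM in CTRL and from 530 to 1331 in HI (log2 -0.39, adjusted p = 0.66). The difference between the muscles in the Pvalb response was -4.27 (SE 0.74, adjusted p = 0.0029) in LRT and -1.86 (adjusted p = 0.30) in HRT. Atp2a1 in the soleus was at 0.19 (adjusted p = 0.73) in LRT and 0.81 (adjusted p = 0.066) in HRT. In HRT soleus Atp2a1 was called higher in 4 of 12 fits that left out a library (without CTRL replicates 1 and 6 and HI replicates 5 and 6, at 0.92 to 1.09, adjusted p = 0.013 to 0.036). Pvalb there ranged from 0.69 to 1.99 in such fits and was called in 2, without CTRL replicate 2 (adjusted p = 0.031) and without HI replicate 6 (0.039). The macrophage, endothelial, adipocyte and satellite cell lists had no identifier. Of the markers and other listed genes that were measured, 1 was at 0 in any library, the fibroblast marker Mfap4, in 13 of 48. The part of these cells in the levels of Prima1 and Gabrr1 was not tested, and in whole muscle fewer cells of a type and less RNA per cell cannot be told apart.

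The genes whose pattern was most like each member were sought among the 1148 other genes with a symbol, by Pearson's r of log2 CPM over the 48 libraries. For Prima1 these were Tmem100 (r = 0.82), Sema7a (0.78) and Atp2a1 (0.78), and 12 of all tested genes had a higher r than Tmem100. The most opposite were Zfp474 (-0.78) and Cidea (-0.76). For Gabrr1 they were Ak1 (0.87), Pfkm (0.86) and Gpt2 (0.86), of which Ak1 buffers ATP and Pfkm is the phosphofructokinase of muscle glycolysis, and 0 of all tested genes had a higher r than Ak1. The most opposite was Cidea (-0.81). With group means removed, the closest to Prima1 was Sema7a (r = 0.77) and the closest to Gabrr1 were Fanca (0.56) and Pfkm (0.56). These correlations describe libraries that share muscle, line and treatment, and carry no test.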

How the data were processed

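RNA of 48 muscle libraries was sequenced. The authors quantified transcripts with Salmon 0.9.1 (per the submitters' processing notes) against Ensembl transcripts of Rnor_6.0 and summed them per gene, and the deposited values are estimated counts, which were not normalized between libraries. The labels and the methods name different library kits, so whether strand was used is not settled, and reads shared with an antisense or overlapping gene cannot be told apart. Counts were rounded, filtered with filterByExpr by group (16960 of 31998 genes kept), scaled by TMM and fitted with edgeR 4.0.16 (R 4.3.3) over all 48 libraries with the 8 groups and RIN. Its quasi-likelihood test gave p, with Benjamini-Hochberg adjustment over all tested genes and calls at an adjusted p under 0.05. The SE is the absolute log2 fold change over the root of F. CPM uses TMM-scaled totals, and log2 CPM a prior count of 2. The fits were run on simulated counts with the same spread in every gene and group, so that run says nothing about groups of unequal spread.

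Symbols were taken from identifier and symbol columns of the study's gene tables, which pair 1149 genes. The members, gene lists, markers and tests were chosen with earlier results of these data known. Genes were named if they were members, listed genes with an identifier, or the closest and most opposite in pattern. Contrasts behind the choice of the 2 members, and comparisons that use their libraries, are given with no test. The p of a listed gene is not independent evidence, because its identifier came from the study's calls in these libraries. The 6 rats of a group are separate animals, and the plantaris and soleus of a rat entered the fit as independent. The 120 pairs of libraries of the same group differed by more than sampling noise, with a mean chi-square per gene of 11.97 to 263. Counting noise is largest where counts are few (2 to 24 for Gabrr1 in CTRL soleus). Alternatives were DESeq2 1.42.0 (its test, and its size factors in edgeR), limma-voom (limma 3.58.1), library totals, no RIN, other filters, each muscle alone, a replicate block and leaving out each library.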

Additional observations from a re-analysis of the deposited data

Results flagged for a closer look

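The level of Prima1 in soleus HRT CTRL replicate 1 stood apart from the other 5 libraries of its group. It was 1.65 CPM, and the next was 0.82 CPM, a gap of 0.692 of the whole range of the group. Both members were checked in all 8 groups, which makes 16 checks, and some such gaps arise by chance alone. The same library also had the highest Ache (20.85 CPM) and the highest Colq (30.82 CPM) of its group. Without it the change of Prima1 in HRT soleus was -0.04 log2 units.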

How the results depend on the processing

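The 7 Prima1 results given with a p kept their side of the threshold in 107 of 108 fits that left out a library and in 65 of 68 under the other alternatives. Most of these results were not called in the main fit and could hardly cross the threshold, so these totals say little about the calls. Every lost call was that of the rise in LRT plantaris, lost in 1 of 12 and in 3 of 10 fits. The value changed sign in 4 of 108 and 3 of 68 fits, all for soleus results that were not called. The 17 results described without a test kept their sign in 271 of 276 and 152 of 152 such fits; the 5 that turned were Gabrr1 differences between the lines, between -0.12 and 0.18. The rise of Prima1 in LRT plantaris lost its call with limma-voom (log2 0.92, adjusted p = 0.25) and with each muscle fitted alone (1.54, adjusted p = 0.05), and ranged from 1.00 to 1.77 when single libraries were left out. The muscle difference of Prima1 in HRT CTRL, which is described only, was 1.22 with limma-voom and ranged from 1.05 to 1.62. The causes were not tested. With at least 10 counts asked of every library, Gabrr1 could not be fitted, and fits of each muscle alone give no value for comparisons between muscles.

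Same-numbered plantaris and soleus libraries correlated in their deviations from group means with r of -0.05 to 0.39, over 0.1 in 22 of 24 pairs, and 22 of 24 correlated best with their own number, a hint from the data and not from the design. A replicate block of numbers gave 1.25 for Prima1 in LRT plantaris (adjusted p = 0.038), and the pair as a random block in limma-voom 0.93 (adjusted p = 0.25); of the other 6 Prima1 results given with a p, none changed its call under either block. Of the 56 HI calls of listed genes, 39 held in every fit that left out a library of the groups compared, 17 were lost in at least 1 and none reversed. Of the 52 HI changes of listed genes that were not called, 13 gained a call in at least 1 such fit, for Atp2a1, Pvalb, Gap43, Gabarapl1, Kcnn3, Lum, Col3a1, Grm4, Homer2, Musk, Myog and, in 2 comparisons, Grik4. The other alternatives were not run for the listed genes, except that the Ache difference between muscles was run with limma-voom and with a block. It gained a call in LRT with limma-voom alone, and in both lines with the random block, at -1.97 in LRT and -1.90 in HRT.

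Library totals in place of TMM shifted the median log2 change of all genes by 0.241 in LRT plantaris, 0.156 in HRT plantaris and 0.141 in LRT soleus. Counts of called genes over all genes moved by more than 1.5 times in some comparisons. In HRT plantaris library totals gave 3019 in place of 1859, and each muscle fitted alone gave 1493 in place of 2364 in LRT soleus and 1207 in place of 2744 in HRT soleus. Between lines in CTRL soleus the count of 246 became 558 with library totals, 434 with DESeq2 and 99 with each muscle alone. In CTRL plantaris 89 became 160 with DESeq2 and 56 with the stricter filter. Limma-voom gave 115 there without the random block and 135 with it. For the interaction of muscle and HI, 370 in LRT became 730 with DESeq2 and 165 with no filter. In HRT 16 became 78 with DESeq2, 64 without RIN, 1 with no filter and 28 with the number block. Limma-voom gave 425 in LRT and 22 in HRT without the random block, and 1348 and 223 with it. For DELTA in the soleus, 5 became 3, 31, 9, 11 and 0 with library totals, DESeq2, no RIN, the stricter filter and each muscle alone. For DELTA in the plantaris edgeR called 0 genes and limma-voom 2. Gabrr1 in the soleus of CTRL rats is limited by its 2 to 24 counts.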
